A study of Homo sapiens with 6 samples.

Results

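The 9 genes described here are the liver X receptors (LXRs) and genes of sterol efflux that these receptors are known to control, followed in SW480 cells labelled as overexpressing the microprotein MUCP1. They were chosen by name, with earlier results of these data known. They comprise the 2 receptor genes NR1H3 (LXR alpha) and NR1H2 (LXR beta), and the exporters ABCG1 and ABCA1. The others are the lipoprotein proteins APOE and PLTP, and the lipid enzymes or efflux regulators LPCAT3, SMPDL3A and EEPD1. All 9 were present among the 20289 genes of the table, and all 9 were among the 12920 genes that passed the filter on low counts. SW480 is an established human cell line from a colon adenocarcinoma, and its mRNA was sequenced in 6 libraries. The 3 MUCP1-FLAG libraries are labelled MUCP1-Flag overexpression for both genotype and treatment. The 3 LV-NC libraries are labelled WT for genotype and None / LV-NC for treatment. All cells grew in L-15 with fetal bovine serum added, and no drug or sterol is named for either. Libraries within a group are labelled as biological replicates, with no clone, vector, day or batch named, so p-values measure the spread between these libraries.

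Each library held between 17333329 and 23282604 counts, and mitochondrially encoded transcripts took 5.91% to 6.24% of counts in MUCP1-FLAG and 6.11% to 6.61% in LV-NC. The table names no gene MUCP1, and its overexpression could not be checked here. Over all tested genes 1079 were called higher and 996 lower.

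LXRs are nuclear receptors that bind oxysterols, oxidised forms of cholesterol, and act on DNA as partners of the retinoid X receptors (RXRs). When sterols are plentiful they raise the transcription of genes that move cholesterol out of the cell and remodel its membranes, among them ABCA1, ABCG1, APOE and PLTP, and of MYLIP, which encodes a ubiquitin ligase. The opposite arm of sterol control is SREBP-2, a transcription factor released when membrane cholesterol is low, which raises genes of cholesterol synthesis and uptake.

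In MUCP1-FLAG libraries both exporter genes fell, with the most negative fold changes of the 9 genes. ABCG1 was at 13.5% and ABCA1 at 18.6% of the LV-NC level in the fitted fold change. In these bulk libraries, fewer cells that hold an mRNA and less of it per cell cannot be told apart. PLTP, NR1H3 and LPCAT3 fell by smaller amounts, and NR1H2, APOE, EEPD1 and SMPDL3A did not pass the test. Of the 9 genes 5 were called lower and 0 higher by edgeR's quasi-likelihood test at a Benjamini-Hochberg adjusted p under 0.05, where 7.71% of the tested genes were called lower and 8.35% higher. In 6 of the 9 genes all 3 MUCP1-FLAG values lay under all 3 LV-NC values, which held for 16.4% of the tested genes. In the other 3 genes the groups overlapped. ABCA1 is in both the 5 and the 6, and it passed the low-count filter through the LV-NC libraries alone. The median log2 fold change, MUCP1-FLAG over LV-NC, was −0.21 over the 9 genes and −0.004 over all tested genes. Because the 9 genes were chosen with earlier results of these data known, these counts and shares only describe them. They are no test of LXR genes as a set. The count of 5 dropped to 3 when MUCP1-FLAG replicate 3 or LV-NC replicate 2 was left out, and also to 3 with DESeq2, because NR1H3 and LPCAT3 were then no longer called.

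**Figure D1:**
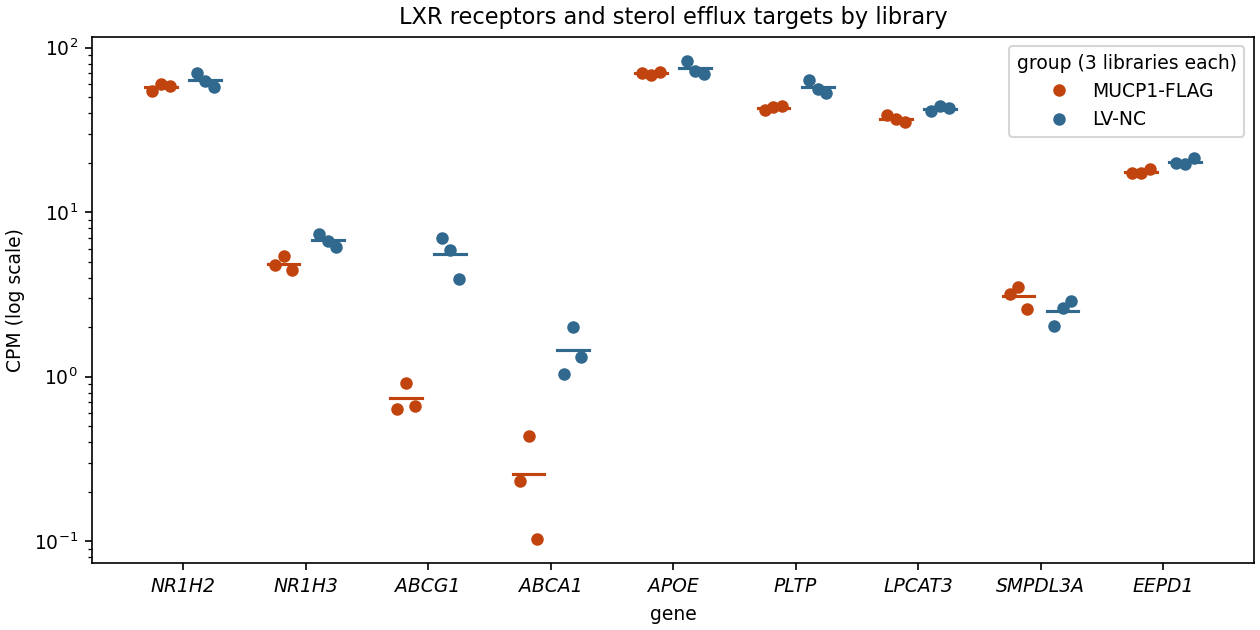
CPM (counts scaled to a common library size, log axis) of the 9 genes in each of the 3 MUCP1-FLAG and 3 LV-NC libraries, with a line at each group's mean. ABCG1 and ABCA1 are the genes with a wide gap between the groups, while NR1H2, APOE and SMPDL3A overlap.

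The promoter of ABCA1 is shown because it holds, in a window that RefSeq places just before its start, the closest match among the 7 genes searched to the element that LXR and RXR bind. That element, called DR4, is a direct repeat of AGGTCA with 4 bases between the copies. The stretch runs from 160 to 1 bases before the start in RefSeq's GRCh38.p14, at chr9:104928156-104928315 on the minus strand. Capitals mark an E-box, CACGTG, and the DR4-like element, which lies on the opposite strand of the gene.
ABCA1 promoter: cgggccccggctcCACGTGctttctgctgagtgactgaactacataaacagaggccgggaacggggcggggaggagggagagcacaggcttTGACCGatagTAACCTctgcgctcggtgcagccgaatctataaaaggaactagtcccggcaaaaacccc
ABCA1 DR4-like element, read on the other strand with the repeats in capitals: AGGTTActatCGGTCA
PLTP element nearer the start, with the repeats in capitals: GGGGCAaagaAGGCCA
PLTP element farther from the start: AGGTCCggaaTGGTGA

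Positions count from the start, with −1 the base before it. The ABCA1 element differed from the DR4 letters at 2 of 12 fixed positions and lay at positions −69 to −54, at chr9:104928209-104928224. As background, this site is a known LXR response element of the human gene. The E-box of ABCA1 lay at positions −147 to −142. Before one of the RefSeq starts of PLTP a pair of DR4-like elements, each with 3 mismatches and each shown on its own strand, lay at positions −194 to −179 (chr20:45911173-45911188) and −212 to −197 (chr20:45911191-45911206), on opposite strands. Windows from 250 bases before to 50 bases after the start were searched for 7 of the 9 genes, all but ABCG1 and SMPDL3A, in 13 windows, and both strands were read for AGGTCA, 4 bases of any kind and AGGTCA. With up to 3 mismatches 2 of these 13 windows held a match, 1 of ABCA1 and 1 of PLTP, and 18.6% of all 35116 promoter windows did. With up to 2 mismatches 1 of the 13 did, that of ABCA1, against 2.34% of all windows. The E-box was found in 3 of the 13 windows, those of ABCA1, PLTP and EEPD1, and in 7.26% of all windows. A match is a description of letters in these windows, and binding was not measured here.

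NR1H3, which encodes LXR alpha and is known to be induced by LXR itself in human cells, was modestly lower in MUCP1-FLAG. The gene (ENSG00000025434) lies at chr11:47248300-47269032 on the plus strand of GRCh38. It had 4.75, 5.4 and 4.46 CPM in the MUCP1-FLAG libraries, against 7.4, 6.67 and 6.13 CPM in the LV-NC libraries. All 3 MUCP1-FLAG values lay under all 3 LV-NC values. By edgeR this was a log2 fold change of −0.46 ± 0.14 (SE) at an adjusted p of 0.0291. This call was lost with DESeq2, at an adjusted p of 0.107, and when MUCP1-FLAG replicate 1 (edgeR adjusted p 0.0789), MUCP1-FLAG replicate 3 (0.133), LV-NC replicate 1 (0.0953) or LV-NC replicate 2 (0.0805) was left out. The transcript length implied by its count and its FPKM ran from 1225 to 1501 bases between libraries, a coefficient of variation of 7.34%. The median was 1.97% over the 8909 genes that exceeded 200 counts in each library. NR1H3, at 82 to 144 counts in a library, was not among those genes. Of its exon bases 189, or 4.17%, overlap ACP2 on the opposite strand.

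NR1H2 encodes LXR beta, the receptor present in most tissues, and it did not pass the test. At chr19:50329653-50382982 on the plus strand, the gene (ENSG00000131408) had 54.5, 60.2 and 58.9 CPM in MUCP1-FLAG and 70.3, 62.3 and 57.8 CPM in LV-NC. The groups overlapped, since LV-NC replicate 3 lay under 2 of the MUCP1-FLAG libraries. Tested with edgeR, it had a log2 fold change of −0.13 ± 0.07 at an adjusted p of 0.21. It was called, at −0.19 with an edgeR adjusted p of 0.0269, once LV-NC replicate 3 was left out.

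Per transcript length NR1H2 was the more abundant receptor in every library. It averaged 30.5 ± 1.48 FPKM in MUCP1-FLAG and 34.7 ± 3.47 FPKM in LV-NC, while NR1H3 averaged 3.44 ± 0.491 FPKM in MUCP1-FLAG and 5.26 ± 0.698 FPKM in LV-NC (SD, n = 3 each). NR1H3 made up 10.5%, 11% and 8.84% of the summed FPKM of both receptors in MUCP1-FLAG libraries, against 13.8%, 12% and 13.6% in LV-NC libraries. The ratio of NR1H2 counts to NR1H3 counts was 11.5, 11.1 and 13.2 in MUCP1-FLAG, against 9.5, 9.34 and 9.44 in LV-NC. The ratios did not overlap, and their log2 difference was 0.34. A two-sided exact permutation test gave p = 0.1, which is the smallest value that 3 libraries against 3 allow, so the design cannot pass 0.05 for this ratio. With FPKM in place of counts the log2 difference was 0.43 with the same exact p of 0.1.

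**Figure D2:**
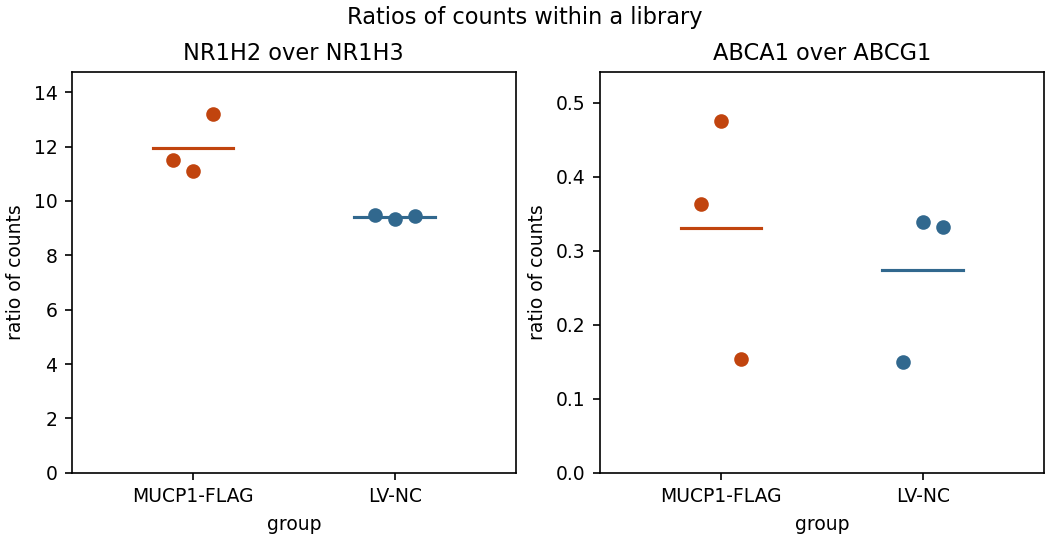
Ratio of NR1H2 counts to NR1H3 counts (left) and of ABCA1 counts to ABCG1 counts (right) within each library, for 3 MUCP1-FLAG and 3 LV-NC libraries, with a line at each mean. The receptor ratio is higher in all MUCP1-FLAG libraries, from 11.1 to 13.2 against 9.34 to 9.5 in LV-NC, while the exporter ratio overlaps between the groups.

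ABCG1, the transporter that passes cholesterol to mature high-density lipoprotein particles, had the most negative log2 fold change of all 12920 tested genes. The gene (ENSG00000160179) lies at chr21:42199689-42297244 on the plus strand. Its counts were 11, 21 and 13 in the MUCP1-FLAG libraries, against 133, 127 and 75 in the LV-NC libraries. As CPM these were 0.638, 0.914 and 0.667 in MUCP1-FLAG and 6.94, 5.89 and 3.93 in LV-NC. Every MUCP1-FLAG library was below 1 CPM and every LV-NC library was above 3 CPM. ABCG1 was 7.39-fold lower in MUCP1-FLAG, a log2 fold change of −2.89 ± 0.26 with an edgeR adjusted p of 7.67e-08. Leaving out any 1 library gave values from −3.08 to −2.71, all called.

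ABCA1, which loads cholesterol and phospholipid onto lipid-poor apolipoprotein A-I, also fell, from a lower level. It (ENSG00000165029) lies at chr9:104781002-104928237 on the minus strand. Its counts were 4, 10 and 2 in the MUCP1-FLAG libraries, against 20, 43 and 25 in the LV-NC libraries, sums of 16 in MUCP1-FLAG and 88 in LV-NC. The levels were 0.232, 0.435 and 0.103 CPM in MUCP1-FLAG, against 1.04, 1.99 and 1.31 CPM in LV-NC. The groups were apart, at 0.257 ± 0.168 CPM in MUCP1-FLAG and 1.45 ± 0.49 CPM in LV-NC (SD, n = 3 each), although relative to the mean this spread was the widest of the 9 genes in both groups. ABCA1 was 5.38-fold lower in MUCP1-FLAG, a log2 fold change of −2.43 ± 0.44 with an edgeR adjusted p of 0.00052. It passed the low-count filter through the LV-NC libraries alone, since 3 of them and 0 of the MUCP1-FLAG libraries exceeded 0.518 CPM. Without MUCP1-FLAG replicate 2, the highest of its group, the log2 fold change was −3.11, and over all libraries left out in turn it was called in every case. On log2(FPKM + 1) limma gave −0.16 with an adjusted p of 0.219, where values near 0 FPKM are compressed by the added 1. On log2(FPKM + 0.1) limma gave −0.95, also without a call (adjusted p 0.0873). Why limma did not call ABCA1 was not tested.

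The ratio of the 2 exporters to each other did not separate the groups. ABCA1 counts over ABCG1 counts were 0.364, 0.476 and 0.154 in MUCP1-FLAG, against 0.15, 0.339 and 0.333 in LV-NC. The log2 difference was 0.22, with p = 0.5 in a two-sided exact permutation test. With FPKM in place of counts it was 0.13, with an exact p of 0.9. The FPKM difference turned negative without MUCP1-FLAG replicate 2 or LV-NC replicate 1. The 2 counts of ABCA1 in MUCP1-FLAG replicate 3 limit the precision of this ratio.

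The authors' deposited table gives log2 fold changes of −2.91 for ABCG1, with an adjusted p of 1.41e-15, and −2.58 for ABCA1, with an adjusted p of 0.000999. For PLTP the authors' deposited table gives −0.446 with an adjusted p of 1.19e-05. The remaining 6 genes are above 0.05 there, including LPCAT3 at an adjusted p of 0.0941 and NR1H3 at 0.135 in the authors' deposited table. For ABCG1, ABCA1 and PLTP the authors' log2 fold changes match ratios of the groups' mean FPKM, while the edgeR values come from counts.

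Other members of the exporter families were mostly low or not called. From the ABCA family 11 further genes were looked up, of which 5 were tested, and their median log2 fold change was −0.16. Of these 5, 1 was called lower and 0 higher, where 7.71% of all tested genes were called lower and 8.35% higher. The one called was ABCA3, a phospholipid transporter known for surfactant in the lung, at 9.22, 7.14 and 9.33 CPM in MUCP1-FLAG against 14.8, 11.5 and 12.7 CPM in LV-NC, with a log2 fold change of −0.61 ± 0.12 and an edgeR adjusted p of 0.00161. ABCA13 was at −1.41 with an edgeR adjusted p of 0.123, and its groups overlapped. Of 4 further ABCG genes only the drug transporter ABCG2 was tested, at 0.17 ± 0.41 with an edgeR adjusted p of 0.82, and ABCG5 was at 0 counts in all 6 libraries.

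APOE, the apolipoprotein that carries cholesterol out of many cell types, was the most abundant of the 9 genes per transcript length and did not pass the test. At chr19:44905754-44909393 on the plus strand, the gene (ENSG00000130203) had 70.3, 68.2 and 71.1 CPM in MUCP1-FLAG and 83.4, 71.8 and 69.3 CPM in LV-NC. The groups overlapped, and LV-NC replicate 1 was the highest library. Tested with edgeR, it had a log2 fold change of −0.10 ± 0.06 at an adjusted p of 0.331. Its direct neighbour APOC1, a small apolipoprotein also known as an LXR target, rose instead, with 10.7, 10.3 and 9.49 CPM in MUCP1-FLAG against 6.05, 6.81 and 7.28 CPM in LV-NC. For APOC1 edgeR gave 0.60 ± 0.12 on the log2 scale, with an adjusted p of 0.00125.

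PLTP, which transfers phospholipids between lipoproteins, fell to 75% of its LV-NC level. The gene (ENSG00000100979) lies at chr20:45898621-45912155 on the minus strand. It had 41.8, 43.7 and 44 CPM in MUCP1-FLAG, against 63.2, 56.3 and 53.4 CPM in LV-NC. The MUCP1-FLAG libraries were close together and all lay well under the LV-NC libraries. By edgeR its log2 fold change was −0.42 ± 0.07 at an adjusted p of 0.000175, and it stayed called under every alternative run. PLTP shares 200 of its exon bases, or 7.87%, with CTSA on the opposite strand, itself at 0.08 (edgeR adjusted p 0.257).

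LPCAT3 places polyunsaturated fatty acids into membrane phospholipids, and it fell by the smallest amount of the called genes. The gene (ENSG00000111684) lies at chr12:6976186-7018510 on the minus strand. It had 38.8, 36.8 and 35.1 CPM in MUCP1-FLAG, against 41.2, 43.9 and 42.9 CPM in LV-NC. The groups were apart by a narrow gap. By edgeR its log2 fold change was −0.21 ± 0.07 at an adjusted p of 0.034, and the call was lost with DESeq2 at an adjusted p of 0.0744. It was also lost without MUCP1-FLAG replicate 2 (edgeR adjusted p 0.108), MUCP1-FLAG replicate 3 (0.169) or LV-NC replicate 2 (0.156). Of its exon bases in GENCODE 29, 3100 or 65.6% overlap EMG1 on the opposite strand, and without a known strand setting of the counting, reads of the 2 genes cannot be told apart there. EMG1 itself was at −0.04 with an edgeR adjusted p of 0.674.

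SMPDL3A, a phosphodiesterase related to acid sphingomyelinase and known as an LXR target in human macrophages, was the one gene of the 9 with a positive log2 fold change. At chr6:122789049-122809720 on the plus strand, it (ENSG00000172594) had 3.19, 3.53 and 2.56 CPM in MUCP1-FLAG and 2.03, 2.6 and 2.88 CPM in LV-NC. The groups overlapped. By edgeR this was a log2 fold change of 0.31 ± 0.21 at an adjusted p of 0.352. SMPD1, acid sphingomyelinase itself, was higher at 0.37 ± 0.08 on that scale (edgeR adjusted p 0.00345).

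EEPD1, known in macrophages as an LXR target that promotes cholesterol efflux through ABCA1, separated the groups without passing the adjusted test. At chr7:36153149-36301543 on the plus strand, the gene (ENSG00000122547) had 17.2, 17.3 and 18.4 CPM in MUCP1-FLAG and 19.9, 19.7 and 21.2 CPM in LV-NC. Each MUCP1-FLAG value lay under each LV-NC value. The log2 fold change was −0.20 ± 0.08, and the edgeR p of 0.0251 became 0.108 after adjustment over all tested genes.

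On the FPKM scale, which divides by gene length, the 9 genes differed widely in level. In MUCP1-FLAG the mean levels were APOE 60.4, NR1H2 30.5, PLTP 23.1, LPCAT3 16.4, EEPD1 4.35, NR1H3 3.44, SMPDL3A 1.74, ABCG1 0.247 and ABCA1 0.0233 FPKM, and no neighbours in that order overlapped. In LV-NC they were APOE 65.8, NR1H2 34.7, PLTP 31.5, LPCAT3 19.4, NR1H3 5.26, EEPD1 5.08, ABCG1 1.86, SMPDL3A 1.43 and ABCA1 0.14 FPKM. In LV-NC the values of NR1H2 and PLTP overlapped, as did those of NR1H3 and EEPD1 and those of ABCG1 and SMPDL3A. ABCG1 thus stood beside SMPDL3A in LV-NC and under it in every MUCP1-FLAG library. ABCA1 was last in both groups, at 0.01 to 0.04 FPKM in MUCP1-FLAG and 0.10 to 0.19 FPKM in LV-NC, values that the deposited FPKM give to 2 decimals.

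Other LXR target genes went both ways. Like the other gene lists, this list was chosen with earlier results of these data known, so its counts only describe it. Of 15 such target genes 9 were tested, and their median log2 fold change was −0.17. Of these, 3 were called lower and 3 higher, where 7.71% of all tested genes were called lower and 8.35% higher. Of those lower, the count was 2 with limma. Of those higher, the count was 2 with limma and without MUCP1-FLAG replicate 3 or LV-NC replicate 3. MYLIP fell most, at 3.65, 3.09 and 2.97 CPM in MUCP1-FLAG against 6.94, 6.49 and 8.27 CPM in LV-NC, a log2 fold change of −1.16 ± 0.16 with an edgeR adjusted p of 2.02e-05. SREBF1, which encodes the lipogenic factor SREBP-1, was at −0.51 ± 0.07 with an edgeR adjusted p of 5.59e-05. TTC39B was at −0.41 ± 0.10 with an edgeR adjusted p of 0.00475. With limma MYLIP and SREBF1 stayed called and TTC39B did not. The genes that rose were SCD, the stearoyl-CoA desaturase, at 1.03 ± 0.06 (edgeR adjusted p 8.68e-10), APOC1, and FASN, the fatty acid synthase, at 0.33 ± 0.08 (edgeR adjusted p 0.0165). SCD and FASN are known as targets of SREBP factors as well. MLXIPL, MERTK and LPL were not called, with log2 fold changes between −0.23 and 0.04.

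**Figure D3:**
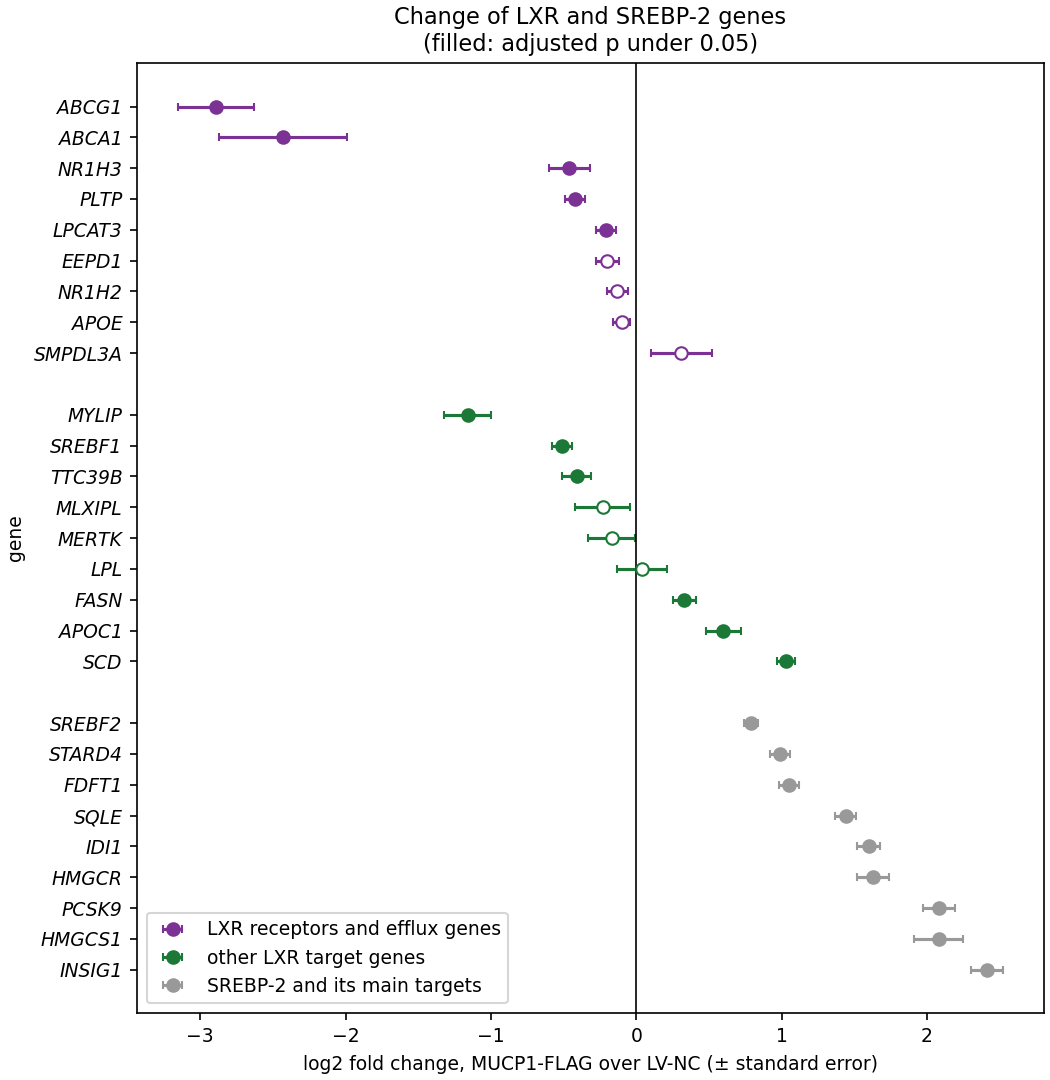
Log2 fold change, MUCP1-FLAG over LV-NC, with its standard error for the 9 genes, the 9 tested other LXR target genes and 9 genes of SREBP-2 and its main targets. Filled points have an edgeR adjusted p under 0.05. All 9 SREBP-2 genes lie right of 0, and ABCG1 and ABCA1 lie farthest left.

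Of 13 receptor partners and coregulators 12 were tested, and their median log2 fold change was 0.03. Of these, 0 were called higher and 1 lower, where 8.35% of all tested genes were called higher and 7.71% lower. The one called was the coactivator NCOA3, at −0.19 ± 0.06 (edgeR adjusted p 0.03). That call was lost with limma (adjusted p 0.151 with 1 added to FPKM and 0.142 with 0.1 added) and with edgeR when any 1 MUCP1-FLAG library or LV-NC replicate 2 was left out (adjusted p up to 0.203). Without LV-NC replicate 3, 3 partners were called higher, and without LV-NC replicate 1, 1 was. RXRA had 45.1, 46 and 48 CPM in MUCP1-FLAG and 46.6, 40.3 and 39.5 CPM in LV-NC, which overlapped, and RXRG was at 0 in all libraries. Of 9 other nuclear receptors known to act upstream of LXR or beside it, 7 were tested. PPARD rose by 0.30 ± 0.05 (edgeR adjusted p 0.000434) and PPARA was lower at −0.32 ± 0.08 (edgeR adjusted p 0.00846), although limma on log2(FPKM + 1) placed it at 0.18 without a call (adjusted p 0.534). The authors' deposited table gives PPARA the opposite sign, at 0.231. Its mean FPKM had that sign too, at 4.81 in MUCP1-FLAG against 4.1 in LV-NC. DESeq2 on counts gave −0.31 with an adjusted p of 0.0192, so its direction depends on whether counts or FPKM are used. How the authors' adjusted p of 0.0243 was obtained is not given, and it is not read here as a call of PPARA as higher. Without MUCP1-FLAG replicate 2 the edgeR adjusted p of PPARA was 0.061. PPARG had a log2 fold change of −0.22 ± 0.07 and an edgeR adjusted p of 0.0467, which became 0.0622 with a replicate block. PPARG was also not called by DESeq2 (adjusted p 0.122), without a filter (edgeR adjusted p 0.0554), by limma, or on omitting any 1 library except LV-NC replicate 3 (edgeR adjusted p up to 0.19).

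Among 9 enzymes that make or remove sterol ligands of LXR, 4 were tested, and their median log2 fold change was −0.10. Of these 4, 1 was called higher and 0 lower, where 8.35% of all tested genes were called higher and 7.71% lower. The one that rose was CYP51A1, an enzyme of cholesterol synthesis, at 1.16 ± 0.06 (edgeR adjusted p 6.25e-11). CYP27A1, which makes a side-chain oxysterol, was at 0.03 ± 0.10 with an edgeR adjusted p of 0.892. CH25H, which makes another, had a sum of 1 count in MUCP1-FLAG and 10 counts in LV-NC and was not tested. Oxysterols themselves were not measured here.

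Genes of sterol storage and handling were called in both directions. Of 13 genes of esterification, acceptors and other efflux proteins 10 were tested, and their median log2 fold change was 0.08. Of these 10, 4 were called higher and 1 lower, where 8.35% of all tested genes were called higher and 7.71% lower. Of those higher, the count was 3 with limma and without MUCP1-FLAG replicate 2 or LV-NC replicate 2. STARD4, a cholesterol carrier, was at 0.99 ± 0.07 (edgeR adjusted p 6.02e-08), the lysosomal lipase LIPA at 0.45 ± 0.06 (1.92e-05), the high-density lipoprotein receptor SCARB1 at 0.28 ± 0.06 (0.00251) and the cholesterol acyltransferase SOAT1 at 0.25 ± 0.07 (0.0145), all edgeR adjusted p. NCEH1, a cholesteryl ester hydrolase, was lower at −0.22 ± 0.05 (edgeR adjusted p 0.00464). Of 9 tested acyltransferase relatives of LPCAT3 2 were called higher, LPCAT1 at 0.23 ± 0.07 (edgeR adjusted p 0.032) and MBOAT2 at 0.22 ± 0.06 (edgeR adjusted p 0.0157), and 0 lower. Of all tested genes 8.35% were called higher and 7.71% lower. The groups of LPCAT1 overlapped. The count of 2 became 0 without MUCP1-FLAG replicate 3, without LV-NC replicate 2 and with limma, and 1 without MUCP1-FLAG replicate 1, MUCP1-FLAG replicate 2 or LV-NC replicate 3.

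SREBP-2 and its main targets moved opposite to the exporters, with 9 of 9 called higher and a median log2 fold change of 1.6. Of all tested genes 8.35% were called higher. These 9 were listed with earlier results of these data known, so the count only describes them. SREBF2 had 167, 158 and 169 CPM in MUCP1-FLAG, against 100, 96.2 and 88.9 CPM in LV-NC, with a log2 fold change of 0.79 ± 0.05 and an edgeR adjusted p of 1.71e-09. INSIG1, which retains SREBP in the endoplasmic reticulum, was at 2.41 ± 0.11 (edgeR adjusted p 1.19e-06).

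The introns of SREBF2 and SREBF1 hold the genes of the miR-33 pair, known for repressing ABCA1. Both mature miRNAs are shown with their shared seed, bases 2 to 8, in capitals, and with the places in the ABCA1 3′UTR whose 7 letters match it. Sequences of the miRNAs are from RefSeq, GRCh38.p14, where miR-33a lies at chr22:41900949-41900969 on the plus strand and miR-33b at chr17:17813897-17813916 on the minus strand.
hsa-miR-33a-5p: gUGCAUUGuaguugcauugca
hsa-miR-33b-5p: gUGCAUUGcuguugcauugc
ABCA1 3′UTR site at base 135: ctgatactattCAATGCAatgc
ABCA1 3′UTR site at base 140: actattcaatgCAATGCAattc
ABCA1 3′UTR site at base 150: gcaatgcaattCAATGCAatga
ABCA1 3′UTR site at base 1475: tttaattgcaaCAATGCAaaag

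The 3′UTR of ABCA1, 3313 bases long in GENCODE 29, held 4 seed matches, the first 2 of which overlap, and the 3′UTRs of the other 8 genes held 0. At least 1 match was found in 8.02% of 12722 tested genes with a 3′UTR, and 25 of them, or 0.197%, held 3 or more. SREBF2, the host of miR-33a, rose and SREBF1, the host of miR-33b, fell, as given above. Mature miRNAs were not measured here, and their part in the level of ABCA1 was not tested. ABCG1 held no match in its 852 bases.

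No tested gene next to an exporter on the chromosome was called. NIPSNAP3B and SLC44A1, which flank ABCA1, were at 0.11 (edgeR adjusted p 0.786) and −0.04 (edgeR adjusted p 0.728). UMODL1 and TFF3, which flank ABCG1, were too low to be tested. Beside NR1H3, DDB2 was higher by 0.36 (edgeR adjusted p 0.00326), and beside PLTP, PCIF1 was higher by 0.27 (edgeR adjusted p 0.015).

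The genes most like each called gene across the 6 libraries were found by the Euclidean distance between mean-centred log2 CPM profiles. Candidates had a mean of at least 2 CPM, and the LXR and sterol efflux genes described here were left out of them. The exporters ABCG1 and ABCA1 could therefore not be listed as neighbours of each other. The nearest candidates for ABCG1 were SPON1 at a distance of 1.26, AP1M2 at 1.4 and CXCL8 at 1.42. For ABCA1 the nearest candidates were AREG at 1.24, SPON1 at 1.28 and AP1M2 at 1.45. Neighbours were far closer for the genes with small changes, namely EFNB3 at 0.08 for PLTP, SEMA7A at 0.12 for NR1H3 and KLF5 at 0.02 for LPCAT3. CXCL8 had a log2 fold change of −2.06 ± 0.25 and SPON1 of −1.87 ± 0.15.

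ABCA1 and ABCG1 are abundant in macrophages, and markers of other cells were therefore looked up. Of 11 macrophage markers 5, including PTPRC, MSR1 and TYROBP, were at 0 in all 6 libraries, and 2 were tested. Summed over the 11, macrophage markers had 7.9 to 10.4 CPM in MUCP1-FLAG and 13.6 to 14.1 CPM in LV-NC. Most of this sum was CD68, a lysosomal protein not confined to macrophages, at −0.62 ± 0.11 with an edgeR adjusted p of 0.000554. The other tested macrophage marker, LYZ, was at 0.29 ± 0.44 with an edgeR adjusted p of 0.709, and its groups overlapped. The 8 fibroblast markers summed to at most 1.09 CPM in MUCP1-FLAG and 1.36 CPM in LV-NC. Of 7 hepatocyte markers 1 was tested, SERPINA1, at −0.28 ± 0.04 with an edgeR adjusted p of 0.000176. It averaged 184 CPM in MUCP1-FLAG and 223 CPM in LV-NC. The rest were too low to be tested. Among them, ALB averaged 0.187 CPM in MUCP1-FLAG and 0.166 CPM in LV-NC, and TTR was at 0 in all libraries. Some colon epithelium markers were present, with KRT19 at 481 CPM or more in every library. However, CDX1 was at 0 in all, and KRT20 was too low to be tested. KRT20 had a sum of 1 count in MUCP1-FLAG and 3 counts in LV-NC. Of 7 tested, 1 was called higher, 3 lower and 3 neither, where 8.35% of all tested genes were called higher and 7.71% lower. KRT19 was higher at 0.17 ± 0.05 (edgeR adjusted p 0.0322), a call lost with limma and on omitting any 1 library except LV-NC replicate 1. KRT18 was at 0.12 ± 0.05 (edgeR adjusted p 0.0644), and KRT8 and CDX2 overlapped between the groups. Among those lower, CDH1, which encodes E-cadherin, was at −1.06 ± 0.08 (edgeR adjusted p 3.26e-09), EPCAM at −0.33 ± 0.05 (edgeR adjusted p 3.51e-05) and VIL1 at −0.40 ± 0.10 (edgeR adjusted p 0.00731), which limma did not call (adjusted p 0.304 with 1 added to FPKM). The part of these markers in the changes of the 9 genes was not tested.

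**Figure D4:**
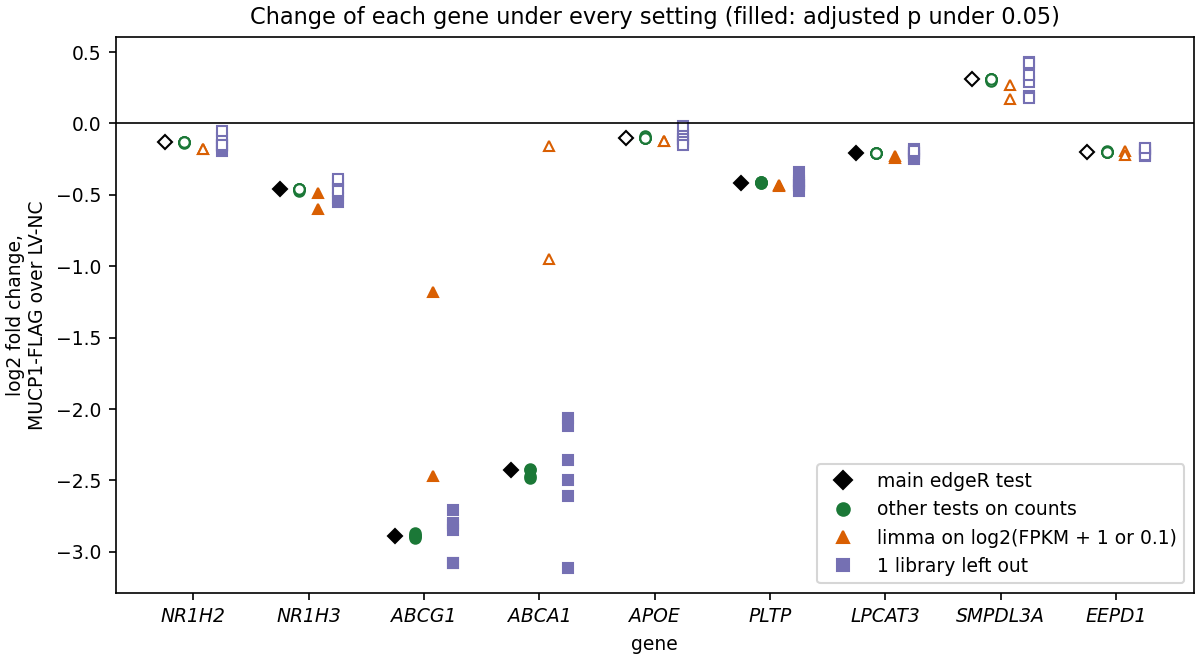
Log2 fold change of each of the 9 genes, MUCP1-FLAG over LV-NC, under the main edgeR test, the other tests on counts, limma on log2(FPKM + 1) or log2(FPKM + 0.1), and with 1 library left out at a time. Filled marks have an adjusted p under 0.05. ABCG1 and PLTP are filled throughout, ABCA1 is filled except with limma, and NR1H3 and LPCAT3 lose the call in several settings.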

How the data were processed

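The mRNA of 6 SW480 cultures, 3 MUCP1-FLAG and 3 LV-NC, was analysed from the read counts (whole numbers) and the FPKM values, scaled for library size and gene length, that the authors deposited for each gene. Per the submitters' processing notes the tools were HISAT2, featureCounts, fastp and DESeq2 and the build was GRCh38; their versions, roles and the strand setting are not given in the sources used here. The p-values, adjusted p-values and log2 fold changes of the authors' deposited table were used only where named as such.

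Counts were tested with edgeR 4.0.16 (R 4.3.3), using the quasi-likelihood F test with robust dispersions, TMM scaling and filterByExpr at a minimum count of 10, and Benjamini-Hochberg adjustment over 12920 genes at 0.05. CPM were scaled by TMM factors, and ± after a log2 fold change gives the standard error. DESeq2 1.42.0 and limma 3.58.1 on log2(FPKM + 1) or log2(FPKM + 0.1), RLE scaling, no filter, a minimum count of 50, a replicate block and leaving out each library were alternatives. The edgeR procedure was tested on simulated data. Replicate numbers did not pair the libraries (correlations of same-numbered deviations 0.035, 0.05 and 0.002). Libraries of a group differed beyond sampling noise, with a chi-square per degree of freedom of 2.57 or more.

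The 9 genes and the gene lists were chosen with earlier results of these data known. Named genes were these 9, up to 4 called genes of each list with the smallest adjusted p (or, with none called, the 2 with the smallest p), 3 nearest profiles and the overlapping or flanking genes of each called gene. Further genes of the lists were named after their values were seen. Gene positions and overlaps come from GENCODE 29, and promoters and miRNAs from RefSeq. Some genes of the lists are not reported here and are left out of the list counts.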

Additional observations from a re-analysis of the deposited data

How the results depend on the processing

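ABCG1, PLTP and MYLIP kept their direction and call under every alternative run. ABCA1 was called in all tests on counts but not with limma on log2(FPKM + 1), at −0.16, or log2(FPKM + 0.1), at −0.95, and a minimum count of 50 left it untested. With DESeq2 NR1H3 was at −0.46 and LPCAT3 at −0.21 without passing, so that 3 of the 9 genes were called lower. With 1 library left out in turn, log2 fold changes ran from −0.55 to −0.39 for NR1H3, −0.25 to −0.18 for LPCAT3, −0.19 to −0.05 for NR1H2 and −3.11 to −2.06 for ABCA1. Over the same fits 3 to 6 of the 9 genes were called lower, and 624 to 1213 of all genes were called lower and 639 to 1323 higher. The fewest calls in both directions came without MUCP1-FLAG replicate 3, and 671 genes were higher without LV-NC replicate 2. The log2 difference in the ABCA1 to ABCG1 ratio of FPKM was 0.13 over all libraries and ran from −0.26 to 0.56 with 1 left out. It was −0.22 without MUCP1-FLAG replicate 2 and −0.26 without LV-NC replicate 1. Limma called 553 genes lower and 517 higher with 1 added to FPKM, and 543 lower and 510 higher with 0.1 added. It placed PPARA at 0.18 and 0.21, opposite to its sign on counts, and the fibroblast marker COL1A1 ran from −0.07 to 0.33 with 1 library left out. A stricter DR4 search left 1 gene with a match in place of 2. The cause of these differences was not tested. With a replicate block ABCA1 was at −2.48, ABCG1 at −2.87, NR1H3 at −0.46 and PLTP at −0.41, all called, and of the named genes PPARG lost its call. Depth limits ABCA1 most, at 2 to 10 counts in a MUCP1-FLAG library.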
